A study of Danio rerio with 15 samples.

Results

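Neutrophil granule, secreted protein and matrix protease genes, with receptor and factor genes of the neutrophil lineage, were followed in zebrafish larvae that differed in genotype and in exposure to zymosan. The set was defined by name: mpx, npsn, lect2l, srgn, lyz, mmp9, mmp13a, csf3r and cebp1. These 9 names stand on 10 rows of the joined gene table, of 24609 genes in all, because mmp13a names 2 rows. Of the 10 rows, 8 held enough reads to be tested, and lyz and cebp1 did not.

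RNA of whole larvae was sequenced from 15 samples, 3 in each of 5 groups, all of the TL strain and 4 days old. The groups were tfeb; tfe3a; tfe3b triple mutants injected with zymosan A, wild type injected with zymosan A, uninjected rraga mutants, uninjected triple mutants and uninjected wild type. The stated purpose was to measure how far Tfeb and Tfe3, transcription factors of lysosomal genes, act in an inflammatory challenge, with mutants of rraga (the RagA GTPase) added for comparison. Zymosan A is a preparation of yeast cell wall. All groups were raised with methylene blue and with PTU, an inhibitor of pigment formation, in their water, and all larvae were frozen before RNA extraction. No group received a sham injection, so the effect of zymosan and that of the injection cannot be told apart. The labels name biological replicates but not separate clutches or the number of larvae in each, so p-values reflect no more than the spread of these libraries, which may be technical.

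Neutrophils are short-lived phagocytes that reach infected or injured tissue early. Peroxidase, lysozyme and proteases are produced while the cell matures and are packed into granules around proteoglycan, and the granules empty at a site of infection or injury. Matrix metalloproteases cut collagen and gelatin and so open tissue to moving cells. Some of them are stored in neutrophil granules in mammals, while macrophages, epidermis and connective tissue also make them on demand. The transcript of a granule protein therefore marks maturing and resident neutrophils, whereas that of an inducible protease can come from several tissues. In RNA of whole larvae, fewer cells of a type and less RNA per cell cannot be told apart.

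Library totals lay between 12314113 and 17566540 counts, which left 19006 genes to test. The 2 zymosan-injected groups, which came from 1 deposited table, included the least alike replicates: wild type zymosan replicate 3 differed from replicates 1 and 2 by a chi-square per degree of freedom of 26.4 and 24.3, against 3.94 to 16.7 in the other pairs. Of the targeted genes, tfe3b lay at 0 to 0.859 CPM (counts scaled to a common library size) in zymosan-injected triple mutants against 2.18 to 3.22 CPM in zymosan-injected wild type, and at 0.0751 to 0.138 CPM in uninjected triple mutants against 1.15 to 2.09 CPM in uninjected wild type. Libraries of the mutants were not all lower than those of wild type in tfeb or tfe3a, rraga mutants were higher than wild type in rraga (24.9 to 26.6 CPM against 12.7 to 17.8 CPM), and the kind of lesion is not given, so they checked no label.

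Only part of the members were well detected, and levels in whole larvae do not show which cells made a transcript. In uninjected wild type, the deposited FPKM, which is scaled by gene length, averaged 5.22 ± 0.632 for npsn, 3.76 ± 0.867 for lect2l, 1.95 ± 0.154 for srgn, 0.956 ± 0.0557 for mpx and 0.614 ± 0.108 for mmp9 (SD, n = 3). The mmp13a rows averaged 1.24 ± 0.373 (ENSDARG00000012395) and 0.0464 ± 0.0122 (ENSDARG00000114451), and csf3r averaged 0.133 ± 0.137. Lysozyme (lyz), a granule enzyme that breaks bacterial cell walls and a common marker of zebrafish neutrophils, had 32 reads over all 15 libraries. Of these, 24 stood in uninjected triple mutant replicate 1, and none in the other 2 libraries of that group. Zymosan-injected triple mutants had 0 reads of lyz, which allows up to 0.0733 CPM. The C/EBP family factor gene cebp1, expressed in zebrafish granulocytes, had 3 reads in all. So the set describes mpx, npsn, lect2l, srgn and the proteases, with lyz and cebp1 near the limit of detection. Why reads of lyz and cebp1 were so few was not tested.

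Counts of changed members differed by comparison. The comparisons share libraries: uninjected wild type and uninjected triple mutants each serve in 3 of the 6. After zymosan mmp9 was higher and mpx and npsn were lower in each genotype, and the mmp13a row ENSDARG00000114451 was the other member called higher. In the triple mutants that was 2 of 8 members higher and 2 of 8 lower, where 7.64% and 5.18% of all tested genes were called. In wild type it was likewise 2 higher and 2 lower, where 6.07% and 3.83% of tested genes were called. The mmp13a row had 5 reads in uninjected wild type and entered the test through the other groups; summed with the other mmp13a row, the zymosan difference in wild type was 0.63 (log2) and did not pass (adjusted p = 0.326, edgeR's quasi-likelihood test). Its call after zymosan in triple mutants was lost in 5 of 6 fits without a compared library, with an adjusted p of up to 0.144 in edgeR's quasi-likelihood test. Without it 1 of 7 members, mmp9, was higher after zymosan in each genotype. Uninjected rraga mutants had 6 of 8 members higher than uninjected wild type and 0 lower, beside 7.58% of all tested genes higher and 6.41% lower. Against uninjected triple mutants they had 5 of 8 higher and 0 lower, beside 13.9% higher and 11.5% lower. Without the mmp13a row ENSDARG00000114451 these were 5 of 7 and 4 of 7. For these 2 rraga comparisons 0 members were lower also at an unadjusted p under 0.05 and in DESeq2. Shares over all tested genes were taken at the adjusted threshold only. Counts at an unadjusted p, here and below, therefore have no matching share and cannot be read as an excess.

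Between triple mutants and wild type the counts of called members lay near the shares over all genes. Uninjected triple mutants had 1 of 8 members higher than uninjected wild type (3.93% of all tested genes higher) and 0 lower (5.84%). The 1 was the mmp13a row ENSDARG00000114451, with 5 reads in uninjected wild type, whose call was lost without wild type replicate 3 (adjusted p = 0.0517, edgeR's quasi-likelihood test) and whose sum with the other mmp13a row was at -0.12 (log2, adjusted p = 0.9). After zymosan 0 of 8 members differed between triple mutants and wild type in edgeR's quasi-likelihood test and in DESeq2, where 11.9% of tested genes did (5.21% higher and 6.66% lower). At an unadjusted p under 0.05 there were 2, npsn and srgn, both higher in the triple mutants. With 1 library left out, the lowest adjusted p was 0.0473 for npsn and 0.0416 for lect2l (edgeR's quasi-likelihood test). Each stayed uncalled in 5 of 6 such fits. All 8 estimates of that comparison were positive, with a median log2 fold change of 0.60 against -0.01 over all tested genes. They come from the same libraries and are not independent, and those of mmp9 and csf3r changed sign when single libraries were left out. The difference of the zymosan responses passed in 0 of 8 members (0.142% of tested genes), in DESeq2 too, and in 3 at an unadjusted p under 0.05. Those 3 were mpx, at 1.06 ± 0.49 (log2, triple mutant response minus wild type response ± SE), and both mmp13a rows. The mmp13a rows had opposite signs, 1.53 ± 0.67 for ENSDARG00000012395 and -2.15 ± 0.84 for ENSDARG00000114451, the latter resting on 5 reads in uninjected wild type.

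**Figure D1:**
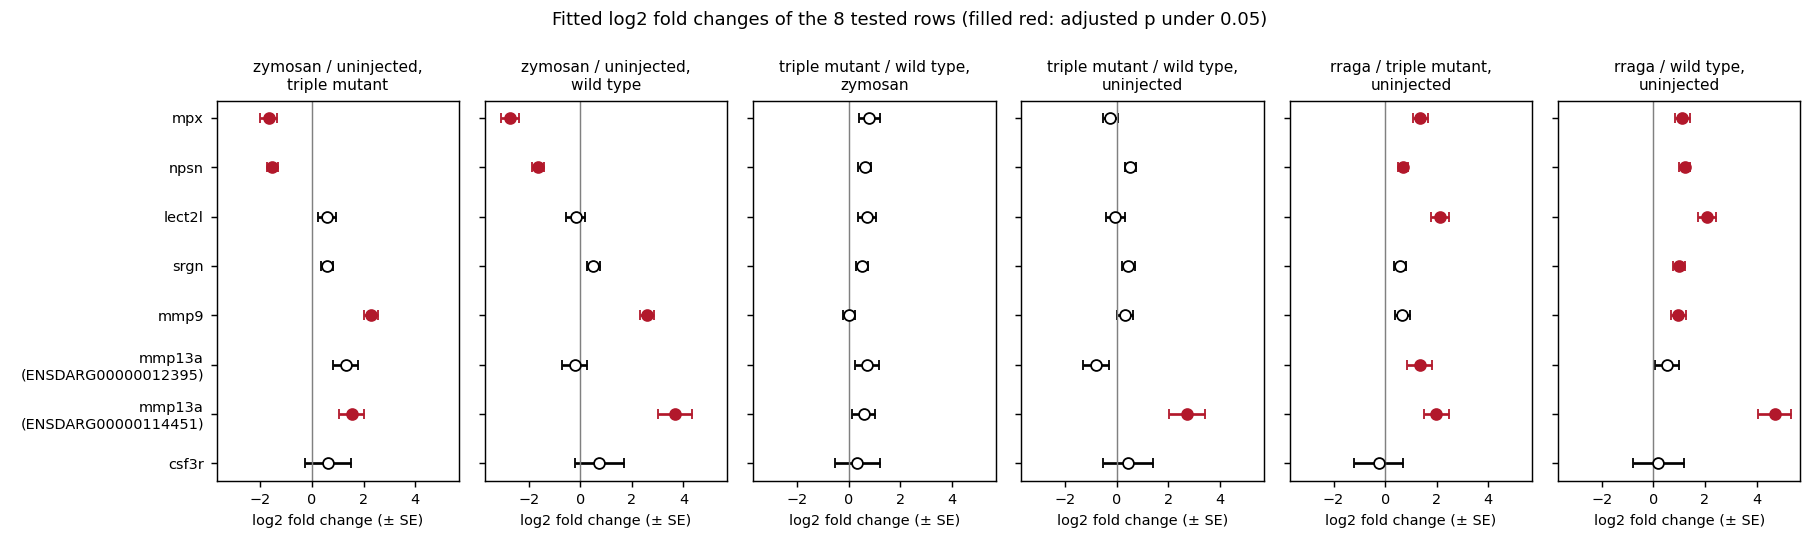
Log2 fold changes (horizontal axis, ± SE) of the 8 tested rows in 6 comparisons of groups of 3 libraries; filled red points passed an adjusted p of 0.05. Zymosan points run to both sides of 0 in each genotype, with mmp9 at 2.29 in triple mutants and 2.59 in wild type and mpx at -1.67 in triple mutants and -2.73 in wild type, whereas the called rraga points all lie above 0.

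The granule enzyme genes mpx and npsn were lower in the zymosan-injected larvae of both genotypes. The gene mpx encodes the myeloid peroxidase that makes hypochlorous acid from hydrogen peroxide in the neutrophil granule (ENSDARG00000019521, minus strand of chromosome 10, 7778870 to 7785945, GRCz11). It stood at 0.669, 1.29 and 0.931 CPM in zymosan-injected triple mutants against 4.01, 2.73 and 2.55 CPM in uninjected triple mutants. In wild type it stood at 0.700, 0.395 and 0.567 CPM after zymosan against 3.65, 3.92 and 3.48 CPM uninjected. No zymosan-injected library reached the lowest uninjected one. The zymosan-injected levels rest on few reads, 9, 19 and 13 in triple mutants and 9, 6 and 9 in wild type. The log2 fold change was -1.67 ± 0.33 in triple mutants (adjusted p = 0.00112, edgeR's quasi-likelihood test) and -2.73 ± 0.35 in wild type (adjusted p = 1.02e-05). Zymosan-injected libraries of the 2 genotypes overlapped, and the smaller fall in triple mutants did not pass the test of the difference (adjusted p = 0.835).

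The gene npsn encodes nephrosin, a secreted metalloprotease of the astacin family known from fish myeloid cells (ENSDARG00000010423, minus strand of chromosome 7, 38653481 to 38659477). Zymosan-injected triple mutants had 3.49, 3.11 and 6.37 CPM against 13.3, 12.5 and 11.9 CPM in uninjected triple mutants. Zymosan-injected wild type had 3.04, 3.22 and 2.203 CPM against 7.63, 9.65 and 9.06 CPM in uninjected wild type. The falls were close in size, -1.53 ± 0.22 in triple mutants (adjusted p = 2.89e-05, edgeR's quasi-likelihood test) and -1.64 ± 0.23 in wild type (adjusted p = 3.48e-05), and the estimate of their difference was 0.10 ± 0.32.

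The same 2 genes were highest in rraga mutants. The gene mpx had 7.87, 8.32 and 7.83 CPM in rraga mutants, more than in any other library, and its 2 uninjected comparison groups overlapped each other. It rose by 1.12 ± 0.28 on the log2 scale relative to uninjected wild type (adjusted p = 0.00989, edgeR's quasi-likelihood test) and by 1.37 ± 0.29 relative to uninjected triple mutants (adjusted p = 0.00109). Its order of levels was thus rraga mutants, then both uninjected comparison groups without separation, then both zymosan-injected groups without separation.

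Nephrosin transcript separated the groups further. In rraga mutants npsn had 22.0, 19.2 and 19.8 CPM, above every uninjected triple mutant library, and those in turn lay above every uninjected wild type library. The rise in rraga mutants was 1.21 ± 0.21 against wild type (log2, adjusted p = 0.000262, edgeR's quasi-likelihood test) and 0.70 ± 0.20 against triple mutants (adjusted p = 0.0128). Without rraga replicate 1 the second value was 0.63 with an adjusted p of 0.0578. The triple mutant excess over wild type, 0.52 ± 0.21, did not pass in the fit of all libraries (adjusted p = 0.133, edgeR's quasi-likelihood test) and did in a fit of those 2 groups alone (adjusted p = 0.0467).

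The gene lect2l encodes a secreted protein related to leukocyte chemotaxin, abundant in zebrafish neutrophils (ENSDARG00000033227, plus strand of chromosome 14, 36885524 to 36887063). It had 12.5, 10.5 and 12.4 CPM in rraga mutants, against 3.66, 1.56 and 2.93 CPM in uninjected triple mutants and 2.18, 3.47 and 2.79 CPM in uninjected wild type. Every rraga library lay above every library of the 4 other groups, and those 4 groups overlapped one another. The gene rraga is also on chromosome 14, and an effect of sequence linked to the mutant allele was not tested. The rise was 2.07 ± 0.35 on the log2 scale against wild type (adjusted p = 0.000246, edgeR's quasi-likelihood test) and 2.13 ± 0.35 against triple mutants (adjusted p = 8.24e-05). Unlike mpx and npsn, lect2l was not called after zymosan. Its level was 4.03 ± 1.04 CPM in zymosan-injected triple mutants and 2.47 ± 1.37 CPM in zymosan-injected wild type (SD, n = 3 each). That difference, 0.71 ± 0.36, passed only when wild type zymosan replicate 3, the library that stood apart, was left out (1.18, adjusted p = 0.0416, edgeR's quasi-likelihood test).

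Serglycin (srgn), the core of the proteoglycan on which granule proteases and cytokines are packed in many blood cells, followed a different order (ENSDARG00000077069, minus strand of chromosome 13, 23070581 to 23074454). It averaged 8.08 ± 1.58 CPM in zymosan-injected triple mutants, 5.59 ± 0.926 CPM in zymosan-injected wild type, 7.87 ± 1.46 CPM in rraga mutants, 5.36 ± 1.31 CPM in uninjected triple mutants and 3.94 ± 0.297 CPM in uninjected wild type (SD, n = 3 each). Uninjected wild type lay below every library of the 4 other groups, which overlapped in each pair. The rise that passed was that of rraga mutants over wild type, 1.00 ± 0.24 on the log2 scale (adjusted p = 0.00612, edgeR's quasi-likelihood test). The estimates after zymosan, 0.60 ± 0.23 in triple mutants and 0.51 ± 0.24 in wild type, did not pass (adjusted p = 0.0976 and 0.218, edgeR's quasi-likelihood test).

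**Figure D2:**
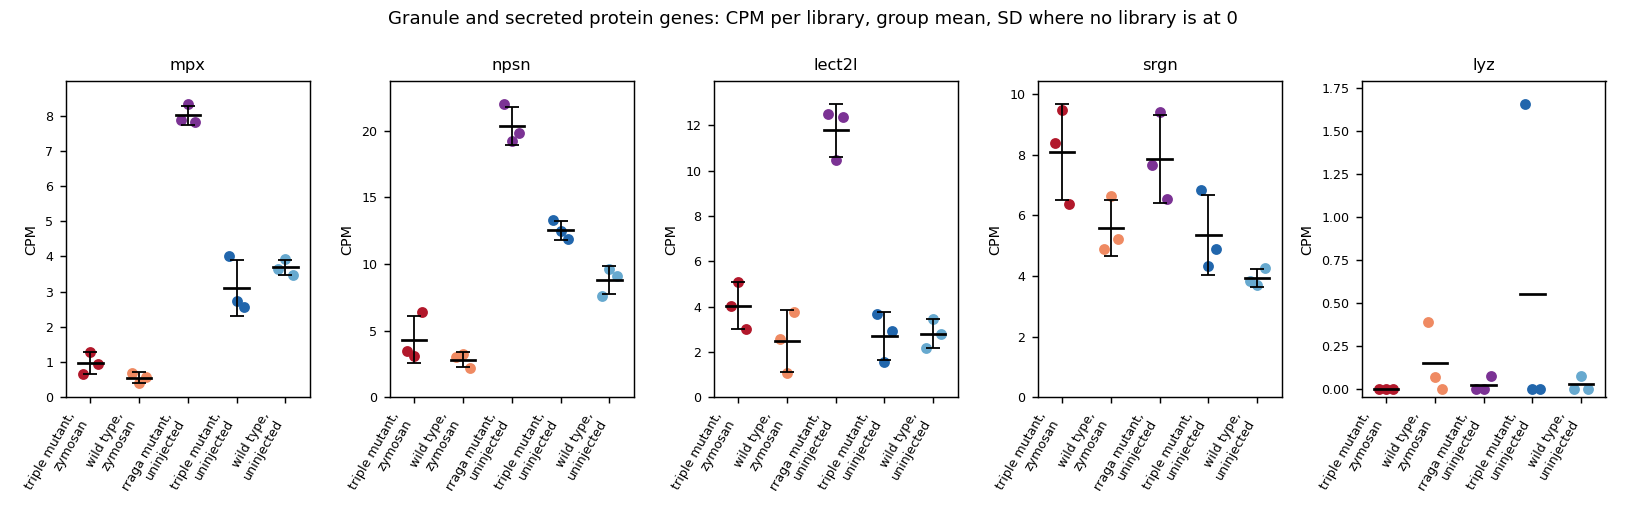
Level (vertical axis, CPM) of 5 granule and secreted protein genes in each of the 15 libraries, with the group mean as a bar and the SD as whiskers where no library was at 0. For mpx and npsn the 2 zymosan-injected groups are lowest and the rraga mutants highest, lect2l is high in rraga mutants alone, and lyz is near 0 except in 1 triple mutant library.

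Gelatinase B (mmp9), which cleaves gelatin and basement membrane collagen, moved opposite to mpx and npsn after zymosan (ENSDARG00000042816, plus strand of chromosome 8, 24281512 to 24295947). It stood at 15.2, 10.1 and 11.02 CPM in zymosan-injected triple mutants against 3.25, 1.78 and 2.40 CPM in uninjected triple mutants. In wild type it stood at 11.98, 8.42 and 15.6 CPM after zymosan against 2.18, 2.19 and 1.57 CPM uninjected. All 6 zymosan-injected libraries lay above all 9 uninjected ones. The rise was 2.29 ± 0.27 in triple mutants (log2, adjusted p = 2.09e-06, edgeR's quasi-likelihood test) and 2.59 ± 0.28 in wild type (adjusted p = 9.03e-07), or 2.35 in wild type without zymosan replicate 3. Between the genotypes after zymosan the estimate was 0.01 ± 0.24, a value whose sign turned when single libraries were left out.

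In rraga mutants mmp9 had 3.79, 4.56 and 3.30 CPM, above every library of the other uninjected groups. The rise over wild type was 0.96 ± 0.30 on the log2 scale (adjusted p = 0.0318, edgeR's quasi-likelihood test). It was close to the threshold: 5 of 6 fits with 1 compared library left out did not pass (adjusted p between 0.0293 and 0.126 over the 6), nor did the fit of those groups alone (adjusted p = 0.065). Against triple mutants the estimate was 0.66 ± 0.29 and did not pass (adjusted p = 0.0959, edgeR's quasi-likelihood test).

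The collagenase gene mmp13a stood on 2 neighbouring rows, both on the plus strand of chromosome 10. ENSDARG00000012395 spans 38593645 to 38602561 and ENSDARG00000114451 spans 38610741 to 38620514, so that 8180 bases lie between them. The second was not found in the table of gene names, and RefSeq lists 1 gene of that symbol, so the rows may share reads and are uncertain as separate genes. Row ENSDARG00000114451 had 37, 38 and 32 reads in zymosan-injected triple mutants, 24, 32 and 18 in zymosan-injected wild type, 71, 54 and 18 in rraga mutants, 17, 16 and 7 in uninjected triple mutants and 2, 2 and 1 in uninjected wild type. Uninjected wild type was thus far below the rest, with 5 reads in all. The row entered the test through the other groups. Zymosan-injected triple mutants, at 2.29 to 2.75 CPM, lay above zymosan-injected wild type, at 1.13 to 2.104 CPM, without overlap, but their difference of 0.58 ± 0.46 did not pass (adjusted p = 0.485, edgeR's quasi-likelihood test).

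Changes of row ENSDARG00000114451 against uninjected wild type rest on those 5 reads. They were 4.71 ± 0.64 on the log2 scale in rraga mutants (adjusted p = 1.82e-05, edgeR's quasi-likelihood test), 3.69 ± 0.66 in zymosan-injected wild type (adjusted p = 0.00053) and 2.73 ± 0.69 in uninjected triple mutants (adjusted p = 0.0117). The last was not called without wild type replicate 3 (adjusted p = 0.0517). Between better counted groups the row was higher in rraga mutants than in uninjected triple mutants, by 1.98 ± 0.48 (adjusted p = 0.00397, edgeR's quasi-likelihood test), and in zymosan-injected than in uninjected triple mutants, by 1.54 ± 0.48 (adjusted p = 0.0377). Of these 2, the zymosan call was lost in 5 of 6 fits that left out a compared library, with adjusted p values up to 0.144.

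Row ENSDARG00000012395 behaved otherwise. It had 3.57, 3.32 and 2.29 CPM in zymosan-injected triple mutants, 0.389, 2.63 and 2.46 CPM in zymosan-injected wild type, 3.51, 3.83 and 2.08 CPM in rraga mutants, 1.24, 1.45 and 0.976 CPM in uninjected triple mutants and 2.69, 1.43 and 2.35 CPM in uninjected wild type. Uninjected triple mutants lay below rraga mutants and zymosan-injected triple mutants, and 1 zymosan-injected wild type library lay below all others. After zymosan the row was higher in triple mutants by 1.31 ± 0.48, which did not pass (adjusted p = 0.079, edgeR's quasi-likelihood test), but did without the filter (adjusted p = 0.0483) and in a fit of those 2 groups alone (adjusted p = 0.0287). The 1 call in the fit of all libraries was the excess of rraga mutants over uninjected triple mutants, 1.34 ± 0.48 (adjusted p = 0.0426, edgeR's quasi-likelihood test). It was lost with the replicate number as a block (adjusted p = 0.0563) and in 5 of 6 fits without a compared library.

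Summing the 2 rows, a choice made after seeing the data, changed what could be said against uninjected wild type. The summed mmp13a was higher in zymosan-injected than in uninjected triple mutants by 1.41 ± 0.35 on the log2 scale (adjusted p = 0.00867, edgeR's quasi-likelihood test). In rraga mutants it was higher than in uninjected triple mutants by 1.65 ± 0.35 (adjusted p = 0.00133) and than in uninjected wild type by 1.52 ± 0.35 (adjusted p = 0.00485). The sum did not pass for zymosan in wild type, at 0.63 ± 0.36 (adjusted p = 0.326, edgeR's quasi-likelihood test), nor for uninjected triple mutants against wild type, at -0.12 ± 0.37 (adjusted p = 0.9).

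**Figure D3:**
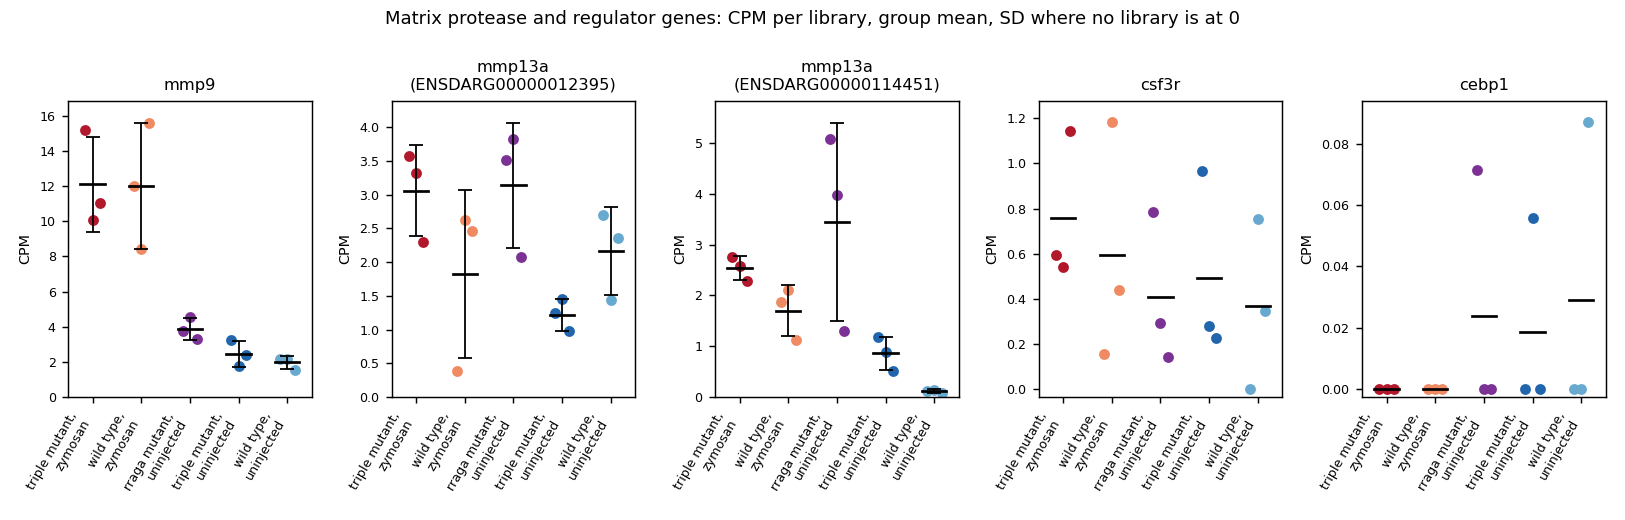
Level (vertical axis, CPM) of mmp9, both mmp13a rows, csf3r and cebp1 in each of the 15 libraries, with the group mean as a bar and the SD as whiskers where no library was at 0. The 6 zymosan-injected libraries of mmp9 lie between 8.42 and 15.6 CPM, above all uninjected ones, while the uninjected wild type libraries of ENSDARG00000114451 lie near 0.

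The regulator genes gave little signal. The receptor of granulocyte colony-stimulating factor, csf3r, which drives neutrophil production and release, had 8, 8 and 16 reads in zymosan-injected triple mutants, 2, 18 and 7 in zymosan-injected wild type, 11, 4 and 2 in rraga mutants, 14, 5 and 3 in uninjected triple mutants and 0, 10 and 4 in uninjected wild type (ENSDARG00000045959, chromosome 16). All groups overlapped, no comparison passed, and standard errors of its log2 fold changes were 0.88 or more. At this depth a change of csf3r by a factor of 2 was not detectable.

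Ratios within a library do not depend on its scaling. Reads of mmp9 per read of mpx ran from 7.84 to 22.7 in zymosan-injected triple mutants and from 17.1 to 27.6 in zymosan-injected wild type. They ran from 0.422 to 0.549 in rraga mutants, from 0.653 to 0.941 in uninjected triple mutants and from 0.450 to 0.597 in uninjected wild type. So reads of mmp9 outnumbered those of mpx in all 6 zymosan-injected libraries and in no uninjected one. The size of the ratio after zymosan is imprecise, as mpx had 6 to 19 reads in those libraries. Reads were not scaled by gene length (3134 bases for mmp9, 3754 for mpx), so a ratio of 1 is not equal transcript abundance. The rraga mutants, with more of both transcripts, kept a ratio overlapping that of uninjected wild type.

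Reads of npsn per read of mpx ran from 2.31 to 2.79 in rraga mutants, from 3.31 to 4.65 in uninjected triple mutants and from 2.09 to 2.60 in uninjected wild type. Among these the rraga mutants overlapped wild type and the triple mutants lay above both. After zymosan this ratio ran from 2.42 to 6.85 in triple mutants and from 3.89 to 8.17 in wild type, on the same few mpx reads. Reads of lect2l per read of npsn ran from 0.544 to 0.623 in rraga mutants, from 0.125 to 0.276 in uninjected triple mutants and from 0.286 to 0.359 in uninjected wild type. In this ratio the rraga mutants lay above both other uninjected groups. After zymosan it ran from 0.472 to 1.63 in triple mutants and from 0.327 to 1.71 in wild type, and both ranges include that of the rraga mutants. For mmp13a, row ENSDARG00000114451 had 0.0370 to 0.105 reads per read of ENSDARG00000012395 in uninjected wild type and 0.462 or more in every other library.

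**Figure D4:**
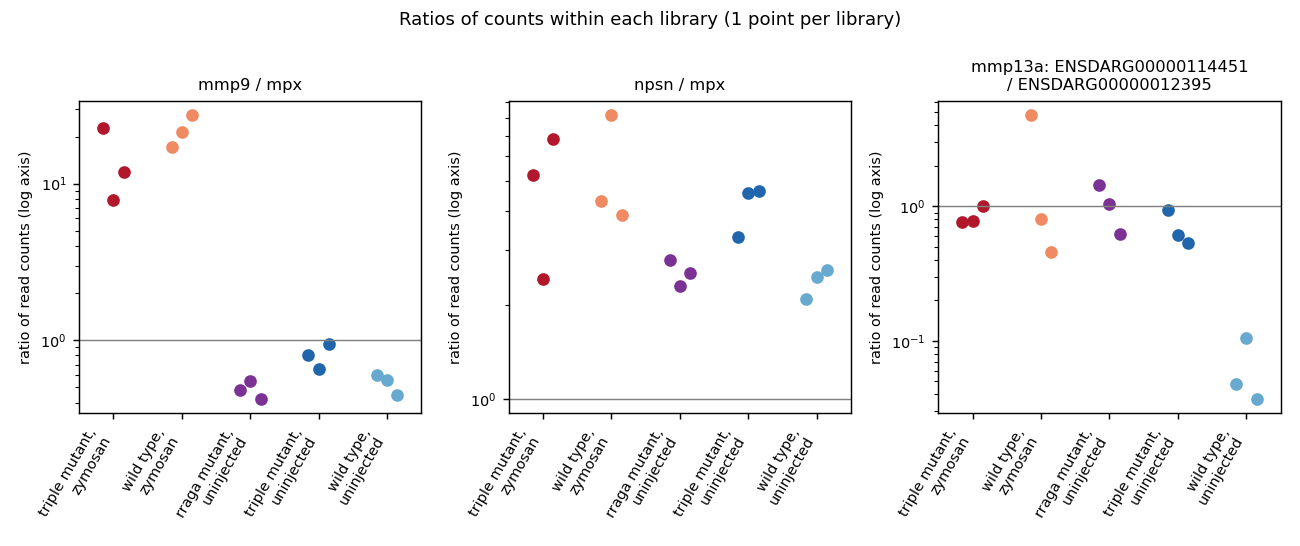
Ratio of read counts within each library (vertical log axis, 1 point per library) for mmp9 over mpx, npsn over mpx and the 2 mmp13a rows. The line marks a ratio of 1 in reads, which are not scaled by gene length. The ratio of mmp9 over mpx lies above it in the 6 zymosan-injected libraries, at 7.84 to 27.6. It lies below the line in the 9 uninjected ones, at 0.422 to 0.941.

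Across the 15 libraries, log2 CPM of mpx and npsn had a Pearson r of 0.93, while mmp9 had -0.75 with mpx and -0.74 with npsn. Serglycin had 0.86 with row ENSDARG00000114451 and about 0 with mpx and npsn (-0.02 and 0.00). These r values describe 5 groups of 3 libraries, and the libraries of a group share genotype, treatment and deposited tables. Among all tested genes with a symbol, the 3 most like mpx were ppp6r3 (0.94), npsn and igf2bp3 (0.93), and igf2bp3 was also most like npsn (0.95). For mmp9 they were mknk2b, ucp3 and foxo4 (each 0.97). For lect2l they were slc15a4 (0.93), enosf1 (0.91) and anxa6 (0.89), and for srgn rpl36a (0.92), mbl2 (0.91) and rrp1 (0.89). For the mmp13a rows the leading genes were gch2 (0.95, with ENSDARG00000114451) and slc25a27 (0.83, the named gene closest to ENSDARG00000012395 after the row FP236810.1 at 0.88). The poorly counted csf3r was most like smad3b (0.79).

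A list of 42 further genes of neutrophil oxidase, migration, chemotaxis and signalling had 25 tested. In triple mutants 4 of 25 rose after zymosan and 2 fell, beside 7.64% and 5.18% of all tested genes, with a median log2 fold change of 0.29 against 0.00 over all tested genes. The 4 with the greatest changes were timp2b (2.17), anxa3b (1.31), nccrp1 (1.03) and lcp1 (-0.92). In wild type 1 of 25 rose, timp2b, an inhibitor of metalloproteases, by 1.81 ± 0.18 (adjusted p = 1.84e-07, edgeR's quasi-likelihood test), and 0 fell, beside 6.07% and 3.83% of all tested genes. At an unadjusted p under 0.05 there were 8 higher and 4 lower in wild type. In rraga mutants 2 of 25 were higher than in wild type and 0 lower, near the shares over all genes of 7.58% and 6.41%, and 5 were higher and 0 lower unadjusted. The 2 were the interleukin 8 family chemokine gene cxcl8b.3 (2.65 ± 0.71) and lcp1 (1.00 ± 0.22), which encodes the leukocyte actin-bundling protein L-plastin. Of these, cxcl8b.3 had 8 reads in uninjected wild type against 55 in rraga mutants, and entered the test through mutant groups. Against triple mutants 4 of 25 were higher and 1 lower, beside 13.9% and 11.5%.

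Between triple mutants and wild type, cxcl8b.3 and rac2 were called both with and without zymosan. After zymosan cxcl8b.3 had 33 reads in triple mutants and 1 in wild type, and uninjected it had 47 in triple mutants and 8 in wild type. It entered the test through mutant groups, so both of its calls rest on few wild type reads. The gene rac2, a GTPase needed for neutrophil movement and oxidase assembly, was lower in triple mutants by 0.76 on the log2 scale after zymosan (-0.76 ± 0.14, adjusted p = 0.000743, edgeR's quasi-likelihood test) and by 0.77 uninjected (-0.77 ± 0.14, adjusted p = 0.000503). In that list 1 of 25 was higher and 2 lower after zymosan, beside 5.21% and 6.66% of all tested genes, and 2 higher and 2 lower uninjected, beside 3.93% and 5.84%. The genes cxcr2, alox5ap and csf3a had 5, 8 and 12 reads over all libraries.

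Of 30 other metalloprotease and inhibitor genes, 19 were tested. The gene timp2b stands both here and among the further neutrophil genes, so its calls are counted in each list. After zymosan 2 of 19, timp2b and mmp30 (0.65), rose in triple mutants and 0 fell, beside 7.64% and 5.18% of all tested genes, with 3 higher and 3 lower at an unadjusted p under 0.05. In wild type 1 of 19, timp2b, rose and 1, mmp28 (-1.22), fell, beside 6.07% and 3.83%. In rraga mutants 3 of 19 were higher than in wild type and 0 lower, beside 7.58% and 6.41%, with 5 higher and 2 lower unadjusted. They were led by mmp14b, a membrane-type metalloprotease (1.70 ± 0.24, adjusted p = 2.96e-05, edgeR's quasi-likelihood test). Between triple mutants and wild type 1 of 19 was higher and 1 lower after zymosan, beside 5.21% and 6.66% of all tested genes. Uninjected, 1 was higher and 2 lower, beside 3.93% and 5.84%. The higher one was mmp14b in both, by 0.91 after zymosan and 0.96 uninjected. The gene mmp2 was lower in triple mutants in both, at -0.56 after zymosan and -0.50 uninjected, and mmp30 was lower uninjected, at -0.76. Against triple mutants rraga mutants had 7 of 19 higher and 2 lower, beside 13.9% and 11.5%.

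Factors that act in myeloid cells changed mostly through the C/EBP family. Of 15 tested of 18 listed, 3 rose and 0 fell after zymosan in each genotype, beside 7.64% higher and 5.18% lower among all tested genes in triple mutants and 6.07% and 3.83% in wild type. At an unadjusted p under 0.05, 4 were higher in triple mutants and 3 in wild type, and 0 lower in either. In triple mutants cebpb rose by 1.82 ± 0.12, cebpd by 1.49 ± 0.13 and cebpg by 0.40 ± 0.11, and in wild type by 1.68 ± 0.12, 1.301 ± 0.13 and 0.47 ± 0.11 (log2; adjusted p between 1.62e-10 and 0.0164, edgeR's quasi-likelihood test). These factors also act in liver and other tissues. Uninjected triple mutants had 0 of 15 higher than wild type and 2 lower, cebpb (-0.63 ± 0.12) and cebpd (-0.44 ± 0.13). The shares of all tested genes were 3.93% and 5.84%. Between the genotypes after zymosan 0 were higher in triple mutants and 1, cebpb (-0.49 ± 0.11), lower, beside 5.21% and 6.66%. In rraga mutants against wild type 0 of 15 passed, beside 7.58% of all tested genes higher and 6.41% lower. Unadjusted, 2 were higher and 1 lower at p under 0.05. Against triple mutants 2 of 15 were higher, cebpd (0.82) and cebpa (0.70), and 1 lower, tal1 (-0.34), beside 13.9% and 11.5%.

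Markers of other cells moved with some of the results. Of 26 macrophage and microglia markers 13 were tested. Over the 18 listed genes found in the tables, the summed level was 602 to 635 CPM in rraga mutants, 268 to 303 CPM in uninjected triple mutants and 359 to 412 CPM in uninjected wild type. In rraga mutants 3 of 13 were higher than in wild type (grn2, apoeb and lgmn) and 1 lower (lgals3bpb). The shares over all tested genes were 7.58% higher and 6.41% lower. Against triple mutants 7 of 13 were higher and 0 lower, beside 13.9% and 11.5%. The sum was carried by apoeb, at 409 to 432 CPM in rraga mutants against 237 to 252 CPM in wild type, and lgmn, at 155 to 160 CPM against 85.8 to 121 CPM. The markers did not move as one: mpeg1.2 averaged 3.35 ± 0.582 CPM in rraga mutants and 4.92 ± 0.480 CPM in wild type, and grn1 5.58 ± 0.991 CPM and 6.90 ± 1.56 CPM (SD, n = 3 each), neither called. The pan-leukocyte sum was 146 to 171 CPM in rraga mutants, overlapping 148 to 158 CPM in wild type. Of its markers 2 of 9 were higher in rraga mutants and 0 lower, beside 7.58% and 6.41% of all tested genes. The other neutrophil genes summed to 130 to 152 CPM against 115 to 120 CPM. These 2 lists share lcp1, rac2, wasb and itgb2, and lcp1 was called in both. The part of these cells in the granule gene result was not tested.

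After zymosan the macrophage and microglia sum was 360 to 386 CPM in triple mutants against 268 to 303 CPM uninjected. In wild type it was 398 to 468 CPM against 359 to 412 CPM uninjected. Of these markers 1 of 13, apoeb, was called higher in each genotype. The shares of all tested genes called higher were 7.64% in triple mutants and 6.07% in wild type. The pan-leukocyte sum was 119 to 133 CPM in zymosan-injected triple mutants against 125 to 135 CPM uninjected. In wild type it was 138 to 144 CPM after zymosan against 148 to 158 CPM uninjected. After zymosan 1 of 9 markers, lcp1, was lower in triple mutants and 0 in wild type (3 unadjusted in each). The shares of all tested genes called lower were 5.18% and 3.83%. The sum of the other neutrophil genes was 121 to 139 CPM in zymosan-injected triple mutants against 93.4 to 108 CPM uninjected, and 137 to 151 CPM in zymosan-injected wild type against 115 to 120 CPM uninjected. The gene timp2b alone held 25.4 to 28.0 CPM of that sum in zymosan-injected triple mutants against 5.68 to 6.16 CPM uninjected, and 24.7 to 41.4 CPM in zymosan-injected wild type against 8.10 to 10.03 CPM uninjected. The gene nccrp1 averaged 19.3 CPM after zymosan against 9.45 CPM uninjected in triple mutants, and 17.3 CPM against 12.04 CPM in wild type. In the same list lcp1 and arpc1b were called lower after zymosan in triple mutants. The part of these cells in the falls of mpx and npsn was not tested.

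Erythrocyte markers summed to 827 to 972 CPM in rraga mutants and 689 to 855 CPM in uninjected triple mutants, against 403 to 457 CPM in uninjected wild type. Of 5 tested markers 3 were higher in rraga mutants and 4 in triple mutants, beside 7.58% and 3.93% of all tested genes. Epidermis markers summed to 5040 to 5060 CPM in rraga mutants against 4330 to 4737 CPM in uninjected wild type. There 2 of 8 were higher and 1 lower, beside 7.58% and 6.41% of all tested genes. After zymosan 0 of 8 were called in either genotype. The shares over all tested genes were 7.64% higher and 5.18% lower in triple mutants and 6.07% and 3.83% in wild type. At an unadjusted p under 0.05 there were 4 markers in triple mutants and 2 in wild type. Of 5 tested thrombocyte and mast cell markers 1, thbs1b, rose after zymosan in each genotype. In rraga mutants 1 of 5, gata2a, was lower than in wild type. The shares over all tested genes are those given above for these comparisons. The marker genes c1qc, gata1a, cldni and mpl had 5, 8, 8 and 14 reads over all libraries. The part of these cells in the results was not tested.

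**Figure D5:**
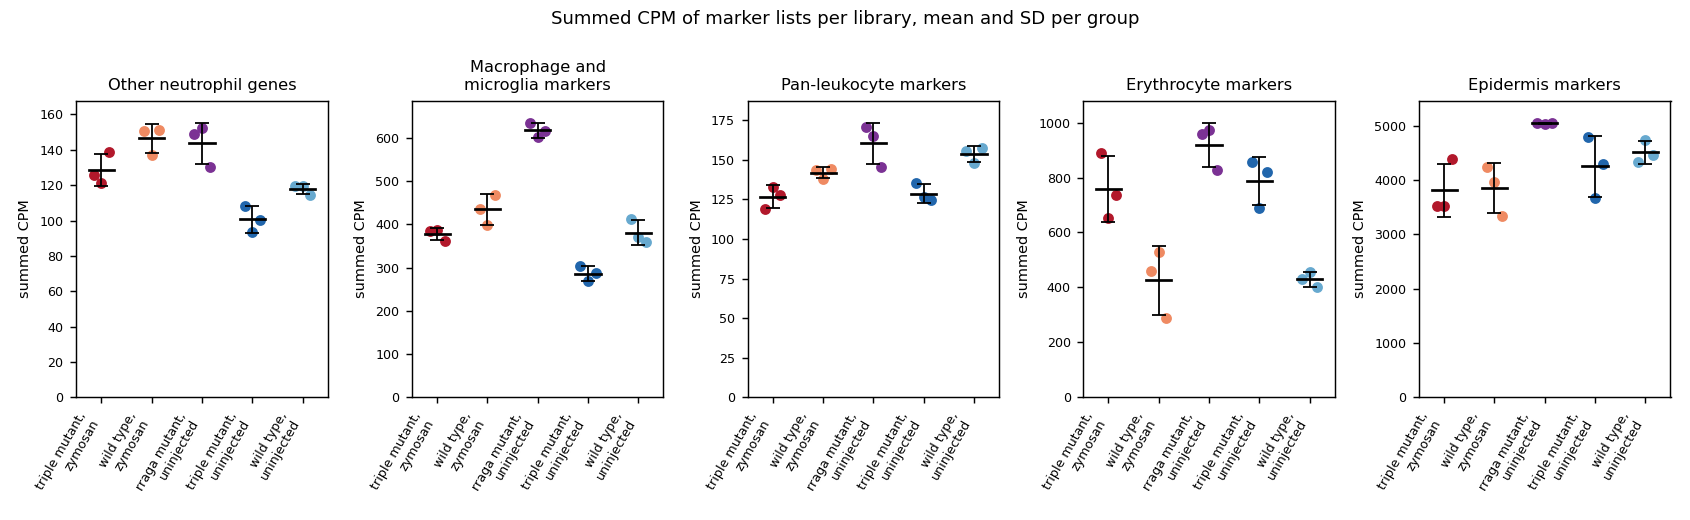
Summed level (vertical axis, CPM) of 5 marker lists in each of the 15 libraries, with mean and SD of each group. The macrophage and microglia sum, most of it apoeb and lgmn, is highest in rraga mutants, at 602 to 635 CPM. The sum of other neutrophil genes is higher in zymosan-injected than in uninjected larvae of the same genotype, largely through timp2b and nccrp1.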

How the data were processed

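Per the labels' protocols, total RNA was made into NEBNext Ultra II libraries. The submitters' processing notes name HISAT2 2.0.5, StringTie 1.3.3b, featureCounts 1.5.0 and GRCz11. The sources used here do not give the strand setting, so antisense and overlapping genes cannot be told apart. The authors deposited 3 tables of 6 libraries, each with raw counts per gene, FPKM and a size-factor scaled signal (deposited signal values were not used here). The uninjected wild type stands in 2 tables, with identical counts for the 22631 genes listed in both. The zymosan table shares no library with the others, so this check does not cover it. A difference between tables cannot be told apart from the effect of zymosan. A gene missing from a table, as cebp1 was from the zymosan table, had at most 1 read there and was set to 0. Library totals ran from 12314113 to 17566540 counts, and 0 of 15 replicate pairs were identical. Reads carry no molecular identifiers, so a floor of 3 counts covers counting error only.

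Counts were fitted with edgeR 4.0.16 in R 4.3.3: filterByExpr at a minimum count of 10, TMM, 1 quasi-likelihood model of 5 group means over all 15 libraries, 7 contrasts and Benjamini-Hochberg adjustment over 19006 genes at 0.05. CPM uses TMM-adjusted totals. The script was tested on simulated data. Deposited FPKM, from the authors' separately normalized tables, was used only to compare genes within uninjected wild type. Alternatives were DESeq2 1.42.0, other scalings, no filter, a replicate block, fits of the compared groups and leaving out each library.

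The members and lists were chosen with earlier results of these data known. Named genes are the 9 members, targeted genes where needed, up to 4 changed genes with the greatest change per list and the 3 genes most correlated with each member. Genes named for low counts, for their share of a list's sum or against its direction were chosen after their values were seen.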

Additional observations from a re-analysis of the deposited data

How the results depend on the processing

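The counts of changed members were the same with DESeq2, DESeq2's size factors and no filter to within 1.5 times. All genes called for the difference of zymosan responses numbered 27, against 50 with DESeq2, 77 without a filter and 16 to 50 when 1 library was left out. With 1 library left out, members called lay between 0 and 1 for triple mutant against wild type after zymosan, between 0 and 1 for the same uninjected, and between 3 and 6 for rraga against triple mutants. With library totals in place of TMM, 1 mean moved by over 1 SD, npsn in uninjected triple mutants (13.7 CPM). Summing the mmp13a rows turned the sign of ENSDARG00000114451 for uninjected triple mutants against wild type (-0.12) and for the interaction (0.78); by construction the sum is ruled by the better counted row.

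Leaving out 1 library turned the sign only of estimates that were not called. For csf3r the log2 ranges were -0.48 to 1.59 (triple mutant against wild type, uninjected), -0.082 to 1.299 (the same after zymosan), -0.23 to 1.87 (zymosan in wild type), -1.24 to 0.86 (interaction), -0.70 to 1.33 (rraga against wild type) and -1.13 to 0.67 (rraga against triple mutant). They were -0.34 to 0.24 for lect2l (triple mutant against wild type, uninjected) and -0.65 to 0.19 (zymosan in wild type), -0.19 to 0.25 for mmp9 (triple mutant against wild type after zymosan), -0.57 to 0.23 for ENSDARG00000012395 (zymosan in wild type), and, for the interaction, -0.28 to 0.30 for npsn and -0.049 to 0.31 for srgn. The cause was not tested.

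Replicate numbers did not pair the samples: 30 correlations of same-numbered deviations lay between -0.10 and 0.07. With the replicate block 4 members, against 5, were higher in rraga mutants than in triple mutants, and the other member counts were 1, 0, 4, 4, 0 and 6, as without it. Low counts limit what can be said of csf3r, lyz, cebp1 and the mmp13a rows, which had 112, 32, 3, 488 and 369 reads in all. They also limit mpx after zymosan, with 41 reads in triple mutants and 24 in wild type. The planned description of promoter motifs was not run.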
